A study of Mus musculus with 39 samples.

Results

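At postnatal day 8, gubernaculum of INSL3-KO mice was compared with gubernaculum of wild-type (WT) mice by RNA-seq. The comparison used 6 of the 39 libraries of the series, chosen by their labels: the 3 biological replicates labelled WT P8 gubernaculum and the 3 labelled INSL3-KO P8 gubernaculum. All were from male mice of the C57BL/6J strain at 8 days after birth. The WT mice carried no targeted allele, and the INSL3-KO mice lacked the mouse Insl3 gene by their labels. How the knockout allele was made, and whether each replicate came from its own animal or from a pool, is not given in the sources used here, so p-values measure only the spread between these samples. Libraries of a further genotype, INSL3-KI, in which the cDNA of minke whale INSL3 replaces the mouse coding sequence at its own locus, and P8 testis libraries of WT and INSL3-KO mice were used beside the main comparison.

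The gubernaculum is the cord that joins the fetal and neonatal testis and epididymis to the future scrotum. INSL3, a relaxin family hormone secreted by Leydig cells of the testis, binds the G protein coupled receptor RXFP2 on gubernacular cells and raises cyclic AMP, and loss of either gene leaves the testes in the abdomen. The rodent gubernaculum holds a mesenchymal core and an outer layer of striated cremaster muscle, which forms from myoblasts around birth, and at its upper end it borders the epididymis and vas deferens, which derive from the Wolffian duct.

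The 3 WT libraries held 35734365 to 37707231 counts and the 3 INSL3-KO libraries 39334842 to 45260372. The WT libraries were deposited in a table of 27 libraries and the INSL3-KO libraries in a second table of 12, with gene sets that differ, so that table and genotype cannot be told apart in this comparison. Loci outside the annotation held 4.09% to 4.69% of the counts in WT and 0.553% to 0.567% in INSL3-KO. Genes listed in both tables were compared. The biological coefficient of variation was 0.228 among the WT libraries and 0.233 among the INSL3-KO libraries, and every replicate pair differed by more than counting noise. Among well-counted genes the INSL3-KO replicates were closer to each other. The median squared difference of a pair was 7.7 to 31.1 times counting noise in WT and 5.43 to 7.63 times in INSL3-KO. Levels below are in CPM, the usual count unit relative to library size, with TMM scaling over the 6 libraries, and they depend on the length of a gene. In bulk tissue, fewer cells of a type and less RNA per cell cannot be told apart.

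Insl3 (ENSMUSG00000079019, GRCm38 chr8:71689214-71690575, plus strand) lies within the annotated span of Jak3 (chr8:71676296-71690575) on the same strand, so reads of the overlap could be assigned to either gene. It had 87, 25 and 29 counts in the WT gubernaculum libraries and 0 in each INSL3-KO library. The groups did not overlap, and with 3 counts per library as the floor INSL3-KO lay at least 20.6-fold below WT (adjusted p = 0.00215 in edgeR's test). That floor, like every counting interval below, covers counting error only. The 0 counts go with the INSL3-KO label. WT gubernaculum itself held few Insl3 counts, so they cannot establish the genotype. The 3 libraries labelled INSL3-KO P8 testis did hold Insl3, against their label, with 906, 804 and 613 counts. In FPKM they had 33.5, 33.2 and 25.1, against 131, 139 and 110 FPKM in WT testis. Wherever testis is used below, those libraries are named by their label only, and the comparison of the gubernaculum libraries does not use them.

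Rxfp2, the INSL3 receptor (ENSMUSG00000053368, chr5:150018675-150082184), had 38.1, 48.6 and 43.6 CPM in WT and 10.6, 9.47 and 31 CPM in INSL3-KO. The receptor was thus detected in all 6 libraries. It was also tested in P8 testis (log2 fold change -1.11, not called), so its detection does not measure the content of gubernacular cells. In CPM all INSL3-KO libraries lay below all WT libraries, and replicate 3 lay far above the other INSL3-KO libraries. In the deposited FPKM the groups overlapped, with 3.99, 3.61 and 20.1 in INSL3-KO against 13.4 to 16.8 in WT, so that INSL3-KO replicate 3 lay above every WT library. The log2 fold change was -1.35 (SE 0.44, edgeR adjusted p = 0.0287), which did not pass the threshold of 0.01, and it was -2.11 without INSL3-KO replicate 3 (adjusted p = 8.56e-05). With limma on log2(FPKM + 1) it was -1.03 (adjusted p = 0.138). In INSL3-KO replicate 3, counts and FPKM together implied a transcript of 1.55 kb, against 2.64 and 2.66 kb in the other INSL3-KO libraries. Rxfp1, the relaxin receptor, had a log2 fold change of -1.63 (adjusted p = 0.0486) and Rln1, which encodes relaxin, of -1.48 (0.0436), and neither was called.

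Of 15609 genes tested, 2374 were lower in INSL3-KO, 15.2% of the genes tested, and 2420 were higher, 15.5%, where a call asked for an adjusted p under 0.01 together with a change of at least 2-fold. The groups did not overlap for 74.7% of the genes tested, so a lack of overlap alone sets no gene apart. With library size in place of TMM, the median over all genes moved from 0.03 to 0.20 on the log2 scale, and 1988 genes were called lower against 3029 higher. The split was 1345 against 2161 in limma fits to log2(FPKM + 1), and 1915 against 3234 with a pseudocount of 0.1. The change in gubernaculum was also compared with the change between the same labels in P8 testis, in one model of 12 libraries. A difference between the tables that is the same in both tissues cancels there, and one that is unequal between the tissues does not. Of 16671 genes, the change in gubernaculum lay below that in testis for 1714 (10.3%) and above it for 1649 (9.89%). In testis alone 1274 genes were lower (7.64%) and 880 higher (5.28%). Among the called genes, 1134 of the 2374 lower genes and 1165 of the 2420 higher genes differed from testis in the same direction. The counts of each gene list below are given against the shares of 15.2% and 15.5%, and a bare value in brackets after a gene is its log2 fold change, INSL3-KO against WT.

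**Figure D1:**
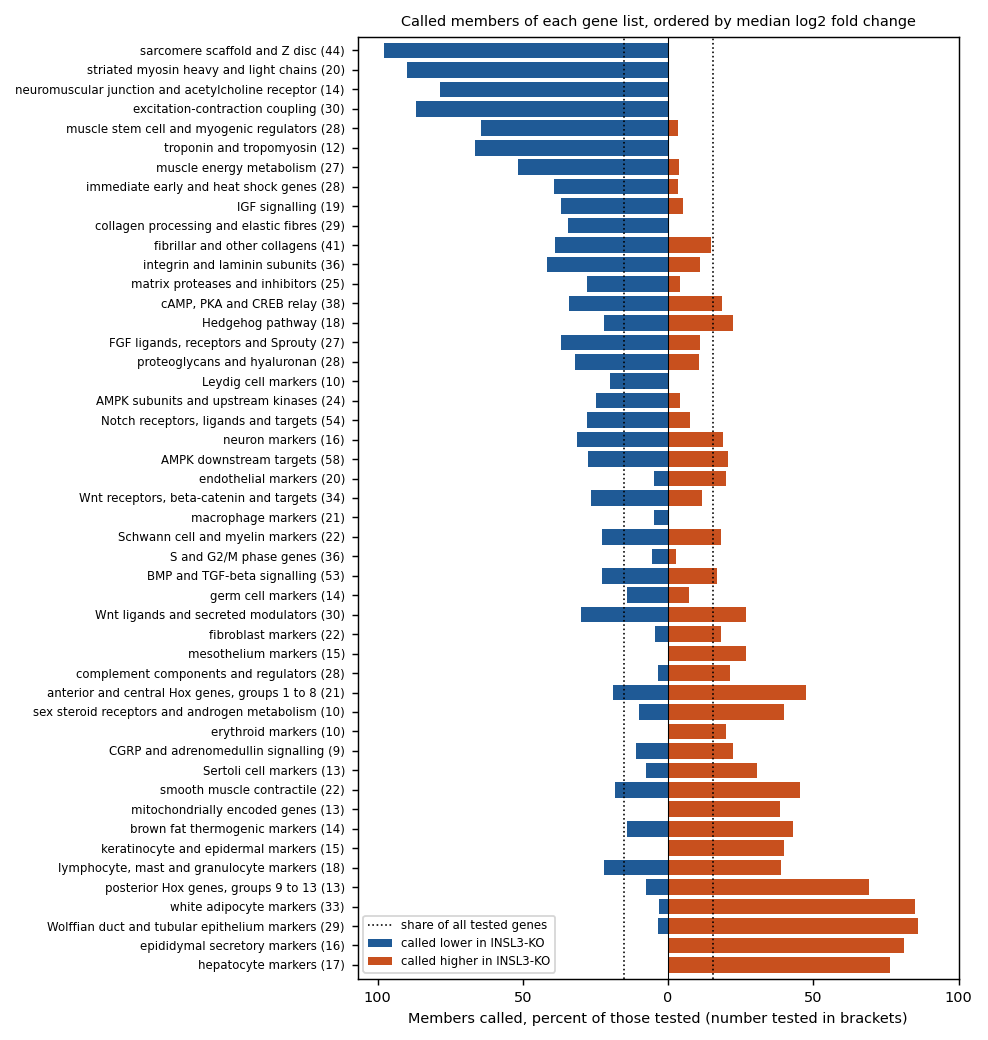
Percent of the tested members of each gene list called lower (left) or higher (right) in INSL3-KO than in WT P8 gubernaculum, for lists with at least 9 tested members in the order of their median log2 fold change, with dotted lines at the shares of all genes tested, 15.2% and 15.5%. The sarcomere, myosin, neuromuscular and coupling lists stand farthest on the lower side, and the Wolffian duct, adipocyte, epididymal and hepatocyte lists on the higher side. The epididymal share covers only the 16 of 33 members that passed the count filter, through the group where they are high, so it cannot be read against the dotted line. Hepatocyte levels were unequal among the INSL3-KO libraries.

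Genes of striated muscle were lower in INSL3-KO. In 5 lists (sarcomere, myosins, troponin and tropomyosin, excitation-contraction coupling, and the neuromuscular junction), 104 of 118 tested genes were called lower and 0 higher, with a median log2 fold change of -2.35 against 0.03 over all genes. Of the 104, 71 were also lower than in testis by the test of the difference. The summed level of the 44 sarcomere genes was 42400, 42900 and 43800 CPM in WT and 8290, 8730 and 8940 CPM in INSL3-KO, a ratio of 4.97. The members still made up a measurable share of INSL3-KO RNA, and the spread within each group was small against the gap between the groups.

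**Figure D2:**
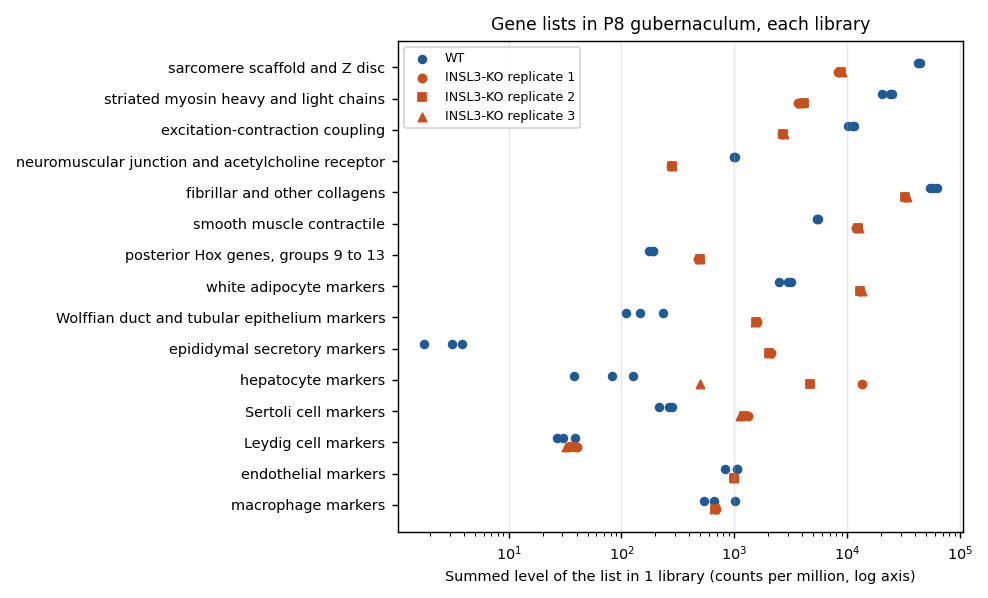
Summed level of 15 gene lists in each of the 6 P8 gubernaculum libraries, in TMM-scaled CPM on a log axis, with 1 point per library, WT in blue and the INSL3-KO replicates in orange with a marker each. The striated muscle lists are lower in all 3 INSL3-KO libraries, the smooth muscle, adipocyte and duct lists are higher, and the hepatocyte list spreads from 495 to 13600 CPM among the INSL3-KO libraries.

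The promoters of 3 genes are printed because these genes of the muscle surface and cytoskeleton were called lower, a choice made after their values were seen: Chrng, the fetal gamma subunit of the muscle acetylcholine receptor (chr1:87205561-87205860, plus strand), Musk, the receptor kinase that clusters that receptor under the nerve (chr4:58285712-58286011, plus strand), and Des, the intermediate filament protein desmin (chr1:75360042-75360341, plus strand). Each run holds 250 bases before to 50 bases after the gene's start, 5′ to 3′, from RefSeq on GRCm38.p6. Capitals mark CAGCTG, an E-box of the kind bound by the myogenic regulators, and CTANNNNTAG, a looser pattern than the MEF2 motif. Both read the same on either strand, and the letters of one cannot overlap the other.
Chrng: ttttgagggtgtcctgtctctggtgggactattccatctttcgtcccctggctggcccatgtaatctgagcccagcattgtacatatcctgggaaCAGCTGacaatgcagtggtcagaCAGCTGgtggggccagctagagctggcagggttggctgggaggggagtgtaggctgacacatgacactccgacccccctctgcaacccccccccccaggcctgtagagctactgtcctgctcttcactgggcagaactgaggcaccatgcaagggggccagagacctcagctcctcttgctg
Musk: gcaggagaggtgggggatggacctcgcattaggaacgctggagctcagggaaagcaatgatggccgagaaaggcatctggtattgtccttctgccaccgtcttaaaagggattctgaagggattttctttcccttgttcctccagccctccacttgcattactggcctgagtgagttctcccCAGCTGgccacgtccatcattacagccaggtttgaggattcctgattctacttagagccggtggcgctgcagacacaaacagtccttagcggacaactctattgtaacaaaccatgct
Des: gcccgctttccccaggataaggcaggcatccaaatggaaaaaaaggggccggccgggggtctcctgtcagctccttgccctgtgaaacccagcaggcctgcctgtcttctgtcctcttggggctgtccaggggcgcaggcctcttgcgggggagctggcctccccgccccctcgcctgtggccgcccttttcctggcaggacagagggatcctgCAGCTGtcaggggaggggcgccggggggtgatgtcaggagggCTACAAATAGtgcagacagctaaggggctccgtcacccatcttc
The Chrng run holds 2 copies of CAGCTG, the Musk run 1, and the Des run 1 copy of each pattern. Of the 104 called muscle genes, 76 matched a RefSeq promoter, and 31 of these (40.8%) held CAGCTG, against 16.1% of 27025 promoters of the same length. CTANNNNTAG was in 10 of the 76 (13.2%), against 3.7% of all promoters. CTANNNNTAG takes any base where the MEF2 motif has only A or T, and the Des copy has a C there. Its counts are therefore not counts of MEF2 sites. A match is a description of the letters and not of a binding event.

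At the neuromuscular junction, 11 of 14 tested genes were lower and 0 higher, with a median log2 fold change of -2.36. Chrng had 83.9, 69 and 70.7 CPM in WT and 4.19, 3.69 and 4.22 CPM in INSL3-KO. The INSL3-KO libraries lay far below WT with little spread (log2 fold change -4.21, SE 0.12, adjusted p = 9.18e-07). Musk had 24.2, 29.9 and 34 CPM in WT and 1.15, 1.24 and 1.94 CPM in INSL3-KO, again with no overlap (-4.34, SE 0.25, adjusted p = 8.96e-06). The log2 difference from the change in testis was -6.04 for Chrng and -4.63 for Musk, and both differences were called, as they were for 5 of the 11 lower genes. The SE of these differences was wide, at 1.05 for Chrng and 0.86 for Musk. The change in testis itself was 1.785 for Chrng and 0.24 for Musk, and neither was called. Ache, the esterase that ends the signal (-3.87), Chrnd, the delta subunit (-3.02), Dok7, the activator of MUSK (-2.84), and Rapsn, the receptor scaffold (-2.67), were lower too. Chrna1, the alpha subunit that the fetal and the adult receptor share, fell as well (-2.29). Chrne, the adult epsilon subunit, had 1.01, 1.51 and 0.932 CPM in WT and 0.791, 0.284 and 0.669 CPM in INSL3-KO, with each INSL3-KO library slightly below WT at these low values (-0.99, adjusted p = 0.0999, not called). Agrn, the nerve-derived ligand upstream of MUSK that many other cells also make, had a log2 fold change of -0.24 and was not called.

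Of the 20 striated myosin genes tested, 18 were lower and 0 higher, with a median log2 fold change of -2.38, and 12 of them were lower than in testis. Myh3, the embryonic heavy chain, had 3792, 3486 and 3821 CPM in WT and 66.8, 74.2 and 68.8 CPM in INSL3-KO. The INSL3-KO libraries lay within a range of 66.8 to 74.2 CPM and the WT libraries were 52.9-fold higher (log2 fold change -5.72, SE 0.09, adjusted p = 2.45e-07). Myh8, the perinatal heavy chain, had 6677, 10356 and 9713 CPM in WT and 632, 679 and 636 CPM in INSL3-KO, and Myh7, the slow heavy chain, had 1182, 1542 and 1554 CPM in WT and 136, 143 and 121 CPM in INSL3-KO. These groups did not overlap either, and the log2 fold changes were -3.78 and -3.42. Myh13, the heavy chain of extraocular muscle, fell from 33, 24.7 and 44.6 CPM to 0.281, 0.284 and 0.379 CPM (-6.74). Myh7b, a slow-tonic heavy chain (-4.81), and Myl4, the embryonic light chain (-3.65), were lower as well.

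Of the adult fast heavy chains, 1 of 3 was called. Myh4, the 2B heavy chain, had 22.5, 73.7 and 35.3 CPM in WT and 11.3, 11.3 and 11.4 CPM in INSL3-KO (log2 fold change -1.95, adjusted p = 0.00390). Myh2, the 2A heavy chain, had 61, 413 and 247 CPM in WT and 39.8, 50.2 and 49.6 CPM in INSL3-KO, and its log2 fold change of -2.37 missed the threshold (adjusted p = 0.0101). Myh1, the 2X heavy chain, had 192, 804 and 817 CPM in WT and 247, 268 and 250 CPM in INSL3-KO, where WT replicate 1 lay below the INSL3-KO libraries and the other WT libraries above them (-1.25, adjusted p = 0.0519). Among the WT libraries replicate 1 was the lowest for each of these chains.

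Per length, as FPKM, the 6 heavy chains Myh1, Myh2, Myh3, Myh4, Myh7 and Myh8 summed to 1730, 2390 and 2300 in WT and 182, 198 and 183 in INSL3-KO. Within that sum, the developmental chains Myh3 and Myh8 together made up 87.8%, 82.9% and 83.5% in WT and 61.5%, 61.5% and 62.2% in INSL3-KO. The means were 84.7% ± 2.67 and 61.7% ± 0.404 (SD, n = 3 each), the groups did not overlap, and the exact two-sided permutation p was 0.1, the smallest that 3 against 3 libraries allow. Myh1 made up 1.64%, 4.94% and 5.19% of the sum in WT and 21.8%, 21.9% and 22.0% in INSL3-KO, while the share of Myh3 went from 32.2%, 21.1% and 23.9% to 5.93%, 6.11% and 6.09%. In WT gubernaculum at P23 the developmental chains made up 7.25%, 13.9% and 12.6%. The INSL3-KO values at P8 thus lay between the P8 and P23 values of WT. Chrng, a level and not a share, fell along with the myosin sum, from 27.5, 22.6 and 23.6 FPKM in WT to 1.43, 1.29 and 1.48 FPKM in INSL3-KO. In WT at P23 it had 0.99, 2.73 and 1.64 FPKM. Chrne, the adult subunit, was below 1 FPKM in all 6 P8 libraries, against 5.92, 4.59 and 3.6 FPKM in WT at P23. Its INSL3-KO values therefore did not lie between the P8 and P23 values of WT.

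**Figure D3:**
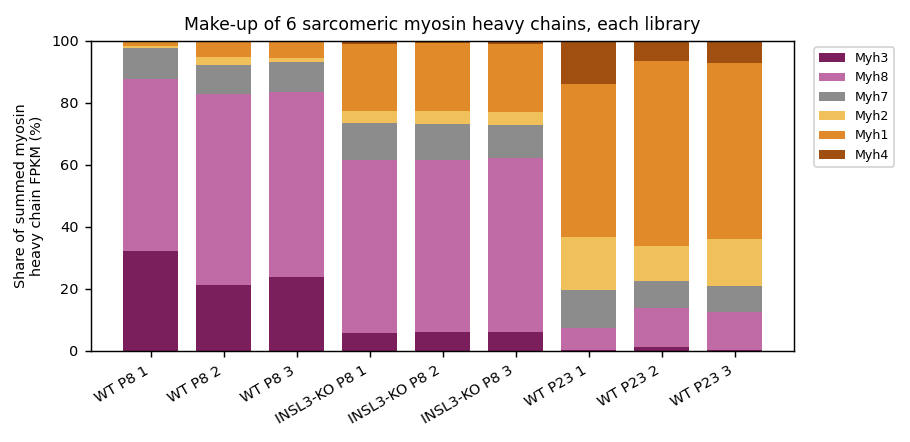
Share of each of 6 striated myosin heavy chains in their summed FPKM, in percent, as a stacked bar per library of P8 gubernaculum from WT and INSL3-KO mice and P23 gubernaculum from WT mice. The developmental chains Myh3 and Myh8 take 82.9% to 87.8% in WT at P8, 61.5% to 62.2% in INSL3-KO at P8 and 7.25% to 13.9% in WT at P23.

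Of the 44 sarcomere genes, 43 were lower, with a median log2 fold change of -2.59, and 30 of these fell more than in testis. Actc1, the cardiac actin that is the main actin of developing skeletal muscle, had 5381, 3132 and 3182 CPM in WT and 272, 286 and 305 CPM in INSL3-KO. Ttn, the giant elastic protein titin, had 3017, 4749 and 5020 CPM in WT and 518, 509 and 559 CPM in INSL3-KO. Neither gene's groups overlapped, and the log2 fold changes were -3.76 and -3.01. Mybph, a myosin binding protein (-4.37), Xirp1, an actin-binding protein of injured and growing muscle (-4.35), and Klhl40, which stabilizes thin filament proteins (-4.04), were the members with the largest falls. For Mybph the difference from testis was not called (-2.05, adjusted p = 0.211). Acta1, the adult skeletal actin, was lower (-1.83), and Des fell from 2369, 2196 and 2264 CPM to 446, 487 and 490.1 CPM (-2.26). Smpx, a small protein of the sarcomere's edge, was the 1 member not called (-0.41, adjusted p = 0.0132). Among troponins and tropomyosins 8 of 12 were lower and 0 higher, led by Tnnt2 (-2.92), the developmental troponin T, and Tnni2 (-2.79), fast troponin I. Tpm1, Tpm3 and Tpm4, tropomyosins that other cells also express, were not called, with log2 fold changes of -0.58, -0.91 and 0.28. Tnni1, slow troponin I, fell by 2.72 in gubernaculum and by 2.34 in testis, and the difference was not called.

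Of the 30 genes that couple excitation to contraction, 26 were lower and 0 higher, with a median log2 fold change of -2.26. Ryr1, the calcium release channel of the sarcoplasmic reticulum, had 309, 619 and 694 CPM in WT and 47.4, 47.4 and 47.5 CPM in INSL3-KO. Cacna1s, the voltage sensor of the transverse tubule, had 202, 344 and 323 CPM in WT and 28.2, 28.1 and 28.1 CPM in INSL3-KO. The groups were apart for both, at log2 fold changes of -3.51 and -3.37, and both changes were larger than in testis. Trim72, a membrane repair protein (-4.31), and Scn4a, the muscle sodium channel (-3.98), fell most. Atp2a1, the fast calcium pump, fell from 2309, 2739 and 2652 CPM to 532, 545 and 574 CPM (-2.22). In muscle energy metabolism the share was smaller, with 14 of 27 genes lower, 1 higher and a median of -1.15. Ckm, muscle creatine kinase, had 3041, 3012 and 2504 CPM in WT and 519.6, 541 and 519.6 CPM in INSL3-KO (log2 fold change -2.44). Eno3, muscle enolase (-2.13) and Pgam2, muscle phosphoglycerate mutase (-2.06), were lower, whereas Gpd1, which makes glycerol phosphate and is also an adipocyte marker, was higher (2.21).

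**Figure D4:**
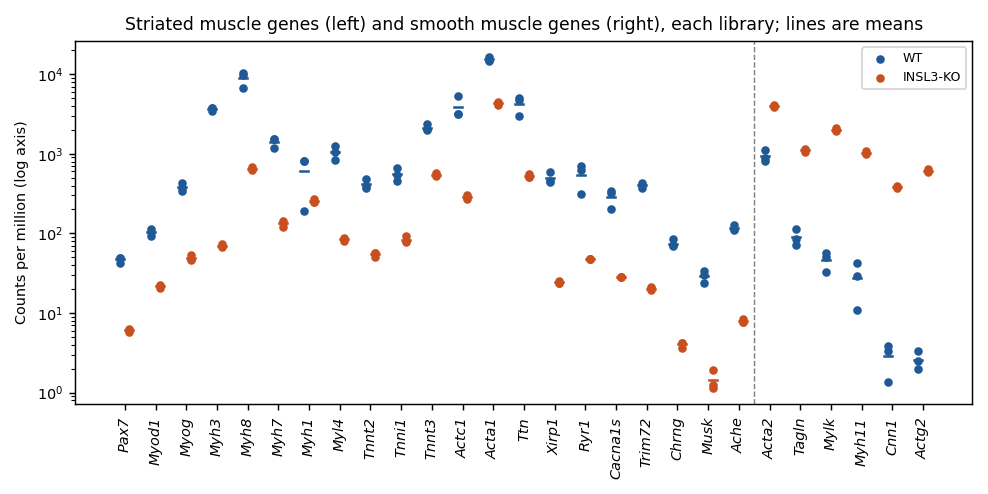
Level of selected muscle genes in each P8 gubernaculum library, in TMM-scaled CPM on a log axis, with a point for each of the 3 WT and 3 INSL3-KO libraries and a line at the group mean. The embryonic and perinatal myosins, the fetal receptor subunit Chrng and Musk sit lower in every INSL3-KO library, while the smooth muscle genes Actg2, Cnn1 and Myh11 sit higher.

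Genes of muscle stem cells and myogenic control were lower in number, 18 of 28 tested against 1 higher, with a median of -2.01. Pax7, the transcription factor of satellite cells, had 42.7, 49.6 and 49.3 CPM in WT and 5.77, 6.30 and 6.20 CPM in INSL3-KO. Myod1, which commits cells to the muscle fate, had 113, 92.6 and 104 CPM in WT and 22.8, 21.9 and 20.8 CPM in INSL3-KO, and Myog, which drives their differentiation, had 436, 343 and 374 CPM in WT and 53, 46.9 and 47.6 CPM in INSL3-KO. All 3 genes were lower in every INSL3-KO library, at log2 fold changes of -2.95, -2.24 and -2.97, so genes of the progenitors and of the differentiating cells were both reduced. Myf5, an early myogenic factor, had 52.6, 34 and 31.5 CPM in WT and 19.9, 18.8 and 23.4 CPM in INSL3-KO, a log2 fold change of -0.93 that was not called. Mymx, which fuses myoblasts, fell (-2.96), as did Vgll2 (-3.77) and Eya4 (-3.90), transcription cofactors of muscle, and Cdh15, the muscle cadherin (-3.63). Mef2c had 658, 705 and 713 CPM in WT and 157, 18.4 and 169 CPM in INSL3-KO: INSL3-KO replicate 2 stood far below the other INSL3-KO libraries, and its log2 fold change of -2.59 was not called (adjusted p = 0.0137). Tcf21, a mesenchymal transcription factor that this list shares with the fibroblast list, rose from 0.154, 1.39 and 1.15 CPM to 84, 92.8 and 85.6 CPM (6.59).

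Smooth muscle genes went the other way. Of 22 tested, 10 were higher and 4 lower, with a median of 0.791, and all 10 rises exceeded those in testis. Actg2, the gamma actin of enteric smooth muscle, had 3.32, 1.95 and 2.48 CPM in WT and 589.8, 603 and 645 CPM in INSL3-KO. Cnn1, calponin, had 3.87, 3.31 and 1.37 CPM in WT and 378, 390.2 and 373 CPM in INSL3-KO, and Myh11, the smooth muscle myosin heavy chain, had 11.1, 29.6 and 42.6 CPM in WT and 995, 1071 and 1033 CPM in INSL3-KO. For these genes every INSL3-KO library lay above every WT library, with log2 fold changes of 7.89 (SE 0.21, adjusted p = 7.95e-07), 7.06 and 5.22. Acta2, the smooth muscle alpha actin, was already high in WT at 1124, 895 and 813 CPM and reached 3884, 3994 and 4141 CPM in INSL3-KO (2.09). Mylk, the myosin light chain kinase (5.43), Kcnmb1, a subunit of its calcium-gated potassium channel (4.10), and Tagln (3.63), an actin-binding protein, rose too. Myocd, the coactivator of this gene program, passed the p threshold but not the fold threshold (0.97, adjusted p = 0.00941). Members that fell included Des, which striated muscle shares, and the pericyte genes Notch3 (-2.52) and Cspg4 (-1.30). The list's sum was 5520, 5360 and 5430 CPM in WT and 11900, 12400 and 12700 CPM in INSL3-KO.

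Adipocyte markers were higher. Of 33 tested, 28 rose and 1 fell, with a median log2 fold change of 3.30, and 25 of the rises exceeded the change in testis, where the list's median was -2.12. Adipoq, the hormone adiponectin, had 0.184, 0.177 and 0.217 CPM in WT and 283, 303 and 302 CPM in INSL3-KO. Pparg, the master regulator of fat cells, had 1.5, 1.77 and 1.49 CPM in WT and 42.1, 40.3 and 42.7 CPM in INSL3-KO. Both groups were tight and far apart, with log2 fold changes of 10.56 (SE 0.12, adjusted p = 7.07e-08) and 4.71. Retn, the adipokine resistin, had 0 counts in every WT library and 5930, 7842 and 7331 counts in INSL3-KO, at least 1770-fold higher at the floor. Cfd, adipsin (10.79), Lep, leptin (9.86), and Plin1, the lipid droplet coat protein (8.03), rose, and so did Fabp4, the fatty acid carrier, from 86.3, 97.4 and 90.9 CPM to 1302, 1489 and 1401 CPM (3.93). Gpam, an enzyme of triglyceride synthesis, fell (-2.76). Of the brown fat genes, 6 of 14 rose and 2 fell, so the list was mixed. Ucp1, the uncoupling protein, went from 0.0614, 0.237 and 0.124 CPM to 16.6, 14.5 and 17.4 CPM (6.80). Slc27a2, also among the rises, was unequal among the INSL3-KO replicates, at 46.2, 17.4 and 2.74 CPM. The falls were those of Dio2 (-2.155) and Cpt1b (-2.04), while Cidea (0.59) and Prdm16 (0.14), which also mark brown fat, were not called. The summed white adipocyte level was 2480, 3170 and 2990 CPM in WT and 12900, 13100 and 13500 CPM in INSL3-KO.

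Markers of the Wolffian duct and of tubular epithelium, 29 tested, had 25 higher and 1 lower, with a median of 5.88, which becomes 5.30 when genes at 0 in WT are set to their lower bound, and 22 of the rises exceeded the change in testis. Pax2, a transcription factor of the Wolffian duct, had 0.307, 0 and 0 CPM in WT and 9.06, 11 and 9.62 CPM in INSL3-KO. Epcam, an epithelial adhesion protein, had 1.11, 2.42 and 0.901 CPM in WT and 199.7, 206 and 198 CPM in INSL3-KO, and Cdh1, epithelial cadherin, had 0.645, 1.69 and 1.49 CPM in WT and 84.1, 86.9 and 88.6 CPM in INSL3-KO. The INSL3-KO libraries were alike and far above WT, with log2 fold changes of 6.56, 7.08 and 6.08. Ehf, an epithelial transcription factor (10.08), Pax8 (7.56) and Cdh16, a kidney and duct cadherin (7.05), rose as well. Ret, the GDNF receptor of the duct and of nerves, fell (-1.08). Summed, the list gave 109, 234 and 145 CPM in WT and 1590, 1570 and 1530 CPM in INSL3-KO.

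Epididymal secretory genes had near-zero levels in WT. Of 33 listed, 16 passed the filter, through the group where they are high, 13 were called higher, and 8 of the 16 were at 0 in every WT library. Spink8, a protease inhibitor of the epididymis, had 0 counts in each WT library and 23555, 29597 and 27945 counts in INSL3-KO, at least 6830-fold higher. Crisp1, a secreted protein that coats sperm, had 0, 0 and 3 counts in WT and 39007, 44301 and 48378 counts in INSL3-KO, a ratio of 33300 with a counting interval of 11400 to 162000. The list's sum was 3.90, 3.13 and 1.77 CPM in WT and 2110, 2030 and 2040 CPM in INSL3-KO, with the INSL3-KO libraries in a narrow range. On a scale set over all 39 libraries, the same sum was 1900 to 3830 CPM in INSL3-KI P8 gubernaculum, which is in the same table as WT, and 4.16 to 1240 CPM in WT gubernaculum at P23. The part of epididymal and duct tissue in the other results was not tested.

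Hepatocyte genes were also detected in the INSL3-KO libraries, in unequal amounts. Alb, albumin, had 0.399, 0 and 0.217 CPM in WT and 4388, 868 and 84.2 CPM in INSL3-KO, and the 17 tested markers summed to 37.6, 83 and 127 CPM in WT and 13600, 4660 and 495 CPM in INSL3-KO. INSL3-KO replicate 1 was highest and replicate 3 lowest for all 17 genes. Called higher were 13 of the 17, and 8 when WT replicate 3 was left out. Fgb, a fibrinogen chain, had 753, 289 and 17 CPM in INSL3-KO, and Cyp2e1, a liver cytochrome, had 240.1, 156 and 26.6 CPM. Over the same 3 libraries the sarcomere sum ranged only from 8290 to 8940 CPM and the duct sum from 1530 to 1590 CPM. The part of liver RNA in the other results was not tested.

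Smaller shares of the other marker lists were called. Fibroblast markers had 4 of 22 higher and 1 lower, mesothelial markers 4 of 15 higher, keratinocyte markers 6 of 15 higher, and endothelial markers 4 of 20 higher and 1 lower. The mesothelial rises included the keratins Krt8, Krt18 and Krt19, which the Wolffian duct list also holds. Msln (-1.19), Wt1 (-0.14) and Upk3b (0.43) of that mesothelial list were not called. Macrophage markers had 1 of 21 lower, and their sums overlapped between the groups. Of 22 Schwann cell and myelin genes 5 were lower and 4 higher, and of 16 neuron genes 5 were lower and 3 higher. Nefm, a neurofilament chain, had 1.26, 3.61 and 4.16 CPM in WT and 0.204, 0.262 and 0.156 CPM in INSL3-KO (-3.84), and Prph, the peripheral neuron filament peripherin, had 10.8, 4.97 and 9.23 CPM in WT and 0.843, 1.33 and 0.535 CPM in INSL3-KO (-3.20). Both were lower in all INSL3-KO libraries and were the 2 neuron genes whose fall exceeded that in testis. Of the 3 rises of neuron genes, 2 also exceeded the change in testis, so that list was mixed, with a median of -0.322. Of 18 tested lymphocyte, mast cell and granulocyte markers 4 were lower and 7 higher. Tpsb2, a tryptase, had 33, 34.9 and 41.9 CPM in WT and 4.72, 4.49 and 5.09 CPM in INSL3-KO (-2.94), and Ltf, lactoferrin (7.93), and Camp, cathelicidin (4.75), were higher. Of the testis markers, 2 of 10 Leydig genes were lower (Insl3 and Cyp11a1, the side-chain cleavage enzyme, -2.44), and the list's sums of 38.9, 30.1 and 27 CPM in WT and 40.5, 36.5 and 32.4 CPM in INSL3-KO overlapped. A large part of these sums was 1 gene, Fdx1, at 22.1, 14 and 15.8 CPM in WT and 32, 29.2 and 25.2 CPM in INSL3-KO (0.73, not called). The overlap of the sums therefore does not show an equal Leydig cell content. Sertoli markers had 4 of 13 higher and 1 lower, the rises including Clu (2.94) and Sox9 (2.56), which other epithelia also express, while Amh, the Sertoli hormone, was not called. Germ cell markers had 1 of 14 higher and 2 lower.

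The relay from the receptor was mixed. Of 38 genes of cyclic AMP, protein kinase A and CREB, 13 were lower and 7 higher, of which 5 and 4 differed from testis in the same direction. Prkaca, the main catalytic subunit of protein kinase A, had 674, 556 and 622 CPM in WT and 99.5, 108 and 95.5 CPM in INSL3-KO. Prkar2b, a regulatory subunit abundant in fat and endocrine cells, had 27.4, 21.4 and 24.2 CPM in WT and 207, 198 and 215 CPM in INSL3-KO. The first fell in every INSL3-KO library and the other rose, with log2 fold changes of -2.61 and 3.09, and both changes exceeded those in testis. The adenylyl cyclases split, with Adcy9 lower (-4.42) and Adcy8 (4.87) and Adcy5 (2.16) higher, as did the phosphodiesterases, with Pde4d lower (-2.89) and Pde3b higher (1.94). Creb1, the transcription factor at the end of the relay, was not called (0.48). Srd5a1, which makes dihydrotestosterone, had 5.93, 7.07 and 6.87 CPM in WT and 14.4, 15.2 and 14.8 CPM in INSL3-KO. The INSL3-KO libraries were all higher (1.16, SE 0.12), while Esr1, the estrogen receptor, was not called (0.34). For the neuropeptide CGRP, which makes the rodent gubernaculum contract, the receptor subunit Calcrl rose from 26.2, 29.4 and 33 CPM to 191, 183 and 203 CPM (2.71). Its partner in the CGRP receptor, Ramp1, had 122, 100.4 and 95.5 CPM in WT and 71, 69.2 and 68.9 CPM in INSL3-KO and was not called (-0.61, adjusted p = 0.00144), while Ramp3, its partner in an adrenomedullin receptor, rose (4.08). Calcr, a related receptor of satellite cells, fell (-2.0), and Calca, which encodes CGRP, was not called.

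Hox genes of the posterior groups, which set position along the trunk and limb axis, had 9 of 13 higher and 1 lower, with a median of 2.50. Hoxd13 had 0 counts in each WT library and 36.7, 34.8 and 36.3 CPM in INSL3-KO, at least 394-fold higher. Hoxd11 had 0.522, 1.01 and 0.839 CPM in WT and 16.1, 18 and 16.2 CPM in INSL3-KO, and Hoxd10 had 2.86, 2.87 and 2.27 CPM in WT and 45.5, 46 and 47.9 CPM in INSL3-KO. The INSL3-KO values were alike within each gene and did not overlap WT (4.40 and 4.12). Hoxd12 (at least 85-fold higher) and Hoxb9 (3.17) rose, Hoxc9 fell (-1.35), and Hoxa11 (0.62) was not called. In INSL3-KI gubernaculum, deposited with WT, Hoxd13 had 73.8, 55.5 and 72.9 CPM on the scale of its own comparison with INSL3-KO. Of 21 anterior and central Hox genes 10 were higher and 4 lower.

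In the Notch pathway, which holds progenitors back from differentiation, 15 of 54 tested genes were lower and 4 higher, with a median of -0.345. Dlk1, a noncanonical ligand of fetal muscle and fat progenitors, had 5355, 3925 and 4303 CPM in WT and 667, 713 and 657 CPM in INSL3-KO. Notch3, a receptor of pericytes and myoblasts, had 124, 175 and 233 CPM in WT and 32.7, 30.6 and 29.6 CPM in INSL3-KO. Both were lower in all INSL3-KO libraries (-2.74 and -2.52), but the log2 fold change of Notch3 in testis was -2.55, and 8 of the 15 lower genes were also called lower there. Jag2, a ligand (-2.07), and Hes6, a promoter of muscle differentiation (-1.75), fell more than in testis. The rises, all larger than in testis, were those of Dner, a ligand (4.45), Dtx1, a ubiquitin ligase (2.15), Mfng, a glycosyltransferase of the receptors (1.24), and Jag1, a ligand (1.20). Notch1 (-0.59), the effector Rbpj (0.01) and the target Hes1 (0.43) were not called.

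Of 53 BMP and TGF-beta genes 12 were lower and 9 higher. The 4 Id genes, BMP targets that block myogenic factors, were all higher. Id2 had 13.3, 9.17 and 13.8 CPM in WT and 395, 384 and 405 CPM in INSL3-KO and Id4 had 11.4, 11.4 and 10.4 CPM in WT and 64.1, 70.1 and 67.4 CPM in INSL3-KO. Their groups were far apart, with log2 fold changes of 5.03 and 2.60, and Id1 (1.58) and Id3 (1.92) rose too. Inhba, the activin subunit, had 3.78, 5.92 and 3.14 CPM in WT and 0, 0 and 0.0892 CPM in INSL3-KO (-6.98), and Grem1, a BMP antagonist, fell (-2.98), with a log2 fold change of -3.99 in testis and a difference of 0.96 that was not called. In the Hedgehog pathway 4 of 18 genes were higher and 4 lower, and the rises were those of the ligands Shh, at 0.0614, 0 and 0 CPM in WT and 27.8, 28.6 and 29.1 CPM in INSL3-KO, and Ihh (4.55), and of the target genes Hhip (2.96) and Ptch1 (1.33). Dhh, the Schwann and Sertoli cell ligand, fell (-1.15). Wnt ligands and modulators had 9 of 30 lower and 8 higher, including Wnt16, a ligand of muscle and bone (-3.87), on the lower side and Wnt7b (3.48) and Wnt9b (4.49), epithelial ligands, on the higher side. Of 34 Wnt receptor and beta-catenin genes 9 were lower and 4 higher, among the latter Lef1, a nuclear effector of the pathway (3.25). Of 27 FGF genes 10 were lower and 3 higher. Fgfr2, an epithelial growth factor receptor, rose from 2.30, 3.02 and 3.88 CPM to 182, 163 and 179 CPM (5.83), and Fgfr4, a receptor of myoblasts, fell (-2.84). In IGF signalling 7 of 19 genes were lower and 1 higher, with Igf1r, the receptor, at 80.6, 107 and 98.6 CPM in WT and 6.79, 6.33 and 5.87 CPM in INSL3-KO (-3.92) and Igf2, the fetal ligand, at 6756, 7187 and 7531 CPM in WT and 897, 977 and 972 CPM in INSL3-KO (-2.92). For Igf2 the difference from testis was not called (-0.96). Subunits and upstream kinases of AMPK, the cell's energy sensor, had 6 of 24 lower and 1 higher. Prkag3, a gamma subunit of skeletal muscle (-2.92), and Prkab2, the beta subunit of muscle (-2.05), were among the falls. Of 58 downstream targets 16 were lower and 12 higher, with Cpt1b, the muscle carnitine transferase, lower (-2.04) and Scd1, a fatty acid desaturase (6.19), and Pck1, which supplies glycerol in fat (7.02), higher.

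Extracellular matrix genes were lower in part. Of 41 collagens 16 were lower and 6 higher, and 5 of the falls and all 6 rises exceeded those in testis. Col1a1, the main fibrillar chain, had 10839, 11402 and 12358 CPM in WT and 4038, 4237 and 4043 CPM in INSL3-KO. The groups did not overlap (-1.49), and the change in testis was -1.73. Col3a1, its partner in soft tissue, was not called (-0.66). The rises included 4 chains of basement membrane collagen IV, Col4a3 (2.76), Col4a4 (2.27), Col4a5 (1.96) and Col4a6 (2.34). Eln, elastin, had 545, 919 and 1181 CPM in WT and 88, 96.4 and 78.6 CPM in INSL3-KO, where the WT libraries were spread widely and every INSL3-KO library lay below them (-3.33), and 10 of 29 genes of collagen processing and elastic fibres were lower and 0 higher. Only 1 of those 10, Adamts14, fell more than in testis. Mmp14, a membrane protease of collagen, fell (-4.25), and 7 of 25 proteases and inhibitors were lower and 1 higher. Of the integrin, laminin and sarcoglycan subunits 15 of 36 were lower and 4 higher, among them Itga7, the muscle laminin receptor, lower (-1.86).

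**Figure D5:**
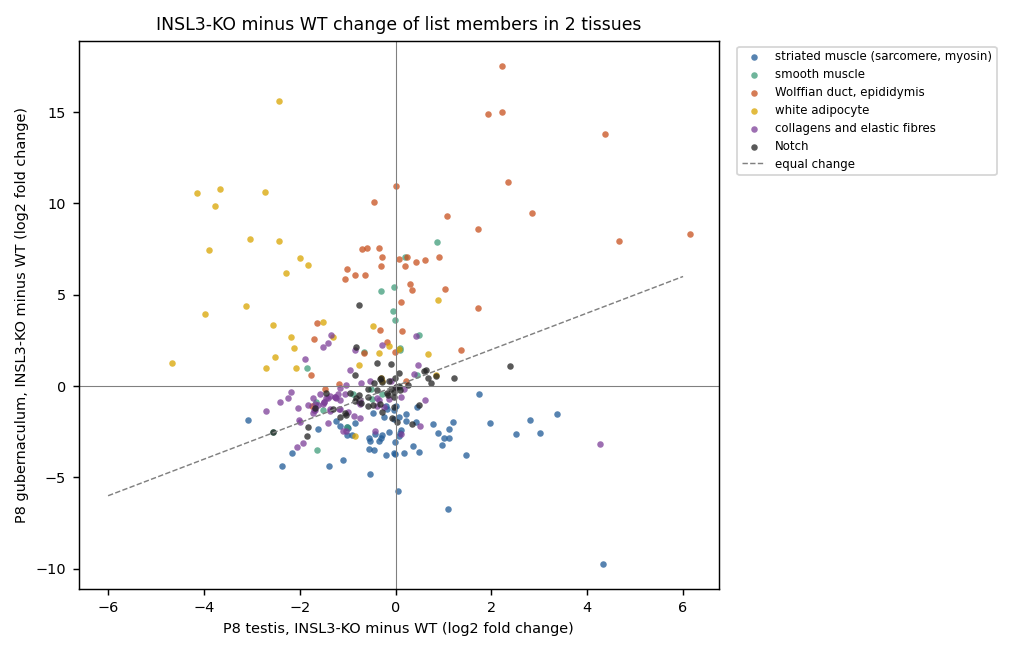
Log2 fold change of INSL3-KO against WT in P8 gubernaculum (vertical) against that of the same labels in P8 testis (horizontal), 1 point per gene, for the members of 6 groups of lists, with a dashed line at equal change. Sarcomere and myosin genes lie below 0 on the vertical axis, duct and epididymal genes lie above it, most adipocyte genes lie above it and left of 0 on the horizontal axis, and most collagens lie below 0 on both.

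Signs of handling and RNA quality were examined beside these lists. Immediate early and heat shock genes had 11 of 28 lower and 1 higher, and 2 of the falls exceeded those in testis. Mitochondrially encoded genes summed to 53200, 61400 and 59700 CPM in WT and 101000, 94600 and 105000 CPM in INSL3-KO, with 5 of 13 higher and 0 apart from testis. Genes of the S and G2/M phases of the cell cycle had 2 of 36 lower and 1 higher. The part of these differences in the other results was not tested.

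Beyond the lists, the 10 largest falls and 10 largest rises were taken among genes whose mean reached 10 CPM and whose implied transcript length was the same in both tables. Adnp, a chromatin factor that nearly all cells express, had 3769, 3365 and 4358 counts in WT and 0 in every INSL3-KO gubernaculum library, at least 1680-fold lower (edgeR adjusted p = 3.38e-06), while the libraries labelled INSL3-KO P8 testis, in the same table, held between 8671 and 10291 counts. Every other library of the series held 1410 to 11495 counts of Adnp, the rest of the second table included, and whether these zeros are a level of the RNA or arose in the making of the table was not tested. Vash1, an inhibitor of vessel growth and tubulin carboxypeptidase, had 19.6, 50.2 and 59.2 CPM in WT and 0.306, 0.545 and 0.134 CPM in INSL3-KO, and Rtl1, an imprinted gene of fetal muscle and placenta, had 299, 480.2 and 530.5 CPM in WT and 11.8, 13.7 and 11.8 CPM in INSL3-KO. Both were lower in all INSL3-KO libraries (-7.01 and -5.13), followed by Sync, an intermediate filament partner in muscle (-5.08), Atp7a, a copper transporter (-4.98), Pdpr, a regulator of pyruvate dehydrogenase (-4.76), Ccdc88c, a Dishevelled-binding protein (-4.57), and Nr2c2, a nuclear receptor (-4.49). Myh3 and Mybph complete the set. Of the 10, 9 fell more than in testis, and 6 were also called lower in testis. The 10 rises had WT at 0 in 9 cases, and 7 exceeded the change in testis. Besides Spink8, Retn, Crisp1, Wfdc15b (at least 1190-fold) and Spink11 (at least 513-fold), they held Pou3f3, a transcription factor of kidney and brain, with 2193, 2661 and 2513 counts (at least 621-fold), Cwh43, a lipid-anchor gene (at least 547-fold), and the liver genes Serpina3k, Serpina1d and C4bp, which were highest in INSL3-KO replicate 1 and lowest in replicate 3 as Alb was, with 43460, 16135 and 764 counts for Serpina3k. Serpina and Wfdc genes have near-identical copies between which reads can be split, so their single values are uncertain.

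All 12 libraries of the second table lay below all 27 of the first for 90 tested genes and above for 39, of which 88 were called lower and 27 higher here. Among these, Ankrd52, a phosphatase regulator (-5.37), Papln, a matrix protein (-3.95), and Chpf2, an enzyme of chondroitin synthesis (-3.01), had the largest falls that met the other conditions, and all 3 fell more than in testis. Gnpnat1, an enzyme of UDP-GlcNAc synthesis (3.99), Mrps25, a mitochondrial ribosome protein (1.72), and Fcf1, a ribosome assembly factor (1.43), had the largest rises, of which 1, Gnpnat1, exceeded testis. The second table also holds the 3 WT P23 testis libraries, so for these genes WT libraries of that table lay on the side of the INSL3-KO libraries and the level followed the table. A called difference from testis was thus also found for genes whose level follows the table. Irs2 (-6.76), Dvl3 (-4.62) and Fgf2 (-7.40), members of signalling lists above, behaved the same way across the tables.

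The 2 mutant genotypes were compared directly in P8 gubernaculum, over libraries that again lie in different tables. Of 15642 genes tested, INSL3-KI lay below INSL3-KO for 1650 (10.5%) and above it for 1865 (11.9%). Of 117 striated muscle genes tested, INSL3-KI was below INSL3-KO for 94. The 6 myosin heavy chains summed to 182 to 198 FPKM in INSL3-KO and to 0.682 to 5.5 FPKM in INSL3-KI. Smooth muscle genes were higher in INSL3-KI for 13 of 22 and lower for 0. Cnn1 had 1297, 1659 and 1608 CPM in INSL3-KI on the scale of that comparison, with a log2 difference of 1.82 from INSL3-KO. White adipocyte markers were lower in INSL3-KI for 14 of 33 and higher for 1, Wolffian duct markers were higher for 11 of 29 and lower for 2, and hepatocyte markers were lower for 15. For Rxfp2 the log2 difference, INSL3-KI minus INSL3-KO, was -3.38.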

How the data were processed

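RNA was isolated in TRIzol, and mRNA libraries from a Hieff NGS kit were sequenced as paired ends on an Illumina NovaSeq. The submitters' processing notes name HISAT2 and GRCm38. The counting program, its strand setting and the annotation version are not given in the sources used here. The deposited counts are whole-number reads per gene that the authors did not normalize, in 2 tables, and the authors deposited FPKM values, which are scaled to library size and transcript length, for the same libraries. FPKM served for the myosin shares and, with counts, for an implied transcript length per gene.

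The tables were joined on the Ensembl identifier over 21561 shared genes, and symbols were taken from GENCODE M21. Counts of the 6 libraries were tested with edgeR 4.0.16 (R 4.3.3): filterByExpr at its defaults (minimum count 10, minimum total 15), TMM scaling and the quasi-likelihood F test, with p-values adjusted by Benjamini and Hochberg's method across the whole tested set. Calls needed at least a 2-fold change and an adjusted p under 0.01. The standard error is the log2 fold change divided by the square root of F. The difference from testis is an interaction term over 12 libraries, and INSL3-KI was compared with INSL3-KO by the same test. On simulated counts the fit recovered 94% to 100% of changed genes by fold size. That simulation changed 50 well-counted genes per fold size, balanced between the directions, with 1 common spread and no difference between tables. Far more genes were called in the data, so these rates need not hold for them. DESeq2 1.42.0 and limma 3.58.1 were used as alternatives, with other scalings and filters, a replicate block, sets of genes by implied length, and each library left out.

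Members and the 49 gene lists were chosen with earlier results of these data known, so no test is made over a list. Named genes are Insl3 and Rxfp2, up to 6 members per list and direction with the largest change whose groups do not overlap, defining members of a list, the 10 largest changes in each direction with a mean of at least 10 CPM, the same implied length and no complete separation of the tables, and the 3 largest left out by that last condition alone. Promoters are from RefSeq, GRCm38.p6. Single genes of some lists are not reported here.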

Additional observations from a re-analysis of the deposited data

Results flagged for a closer look

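The INSL3-KO minus WT change differed between P8 gubernaculum and the P8 testis libraries of the same labels for 1714 genes in the lower and 1649 in the higher direction, by edgeR's test of the interaction. Among the genes named for the size of their change, the log2 difference, gubernaculum minus testis, was -15.06 for Adnp, -5.82 for Myh3, -4.32 for Vash1, -3.90 for Rtl1, -3.82 for Atp7a, -3.51 for Pdpr, -3.50 for Sync, -3.07 for Ccdc88c and -2.67 for Nr2c2. On the higher side it was 18.17 for Retn, 15.46 for Spink8, 14.02 for Pou3f3, 12.93 for Wfdc15b, 12.91 for Crisp1, 11.84 for Cwh43 and 9.57 for Spink11. These large values rest on groups at or near 0 counts and depend on the prior count, so they give a direction and no size. For genes whose tables are completely separated it was -2.69 for Ankrd52, -1.76 for Papln, -1.0 for Chpf2 and 1.55 for Gnpnat1. For Insl3 it was -6.89, in a test that includes the libraries labelled INSL3-KO P8 testis, which hold Insl3 counts.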

How the results depend on the processing

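With DESeq2 all 347 named genes kept their direction and call. The direction held but the call was lost for 7 with library size alone, 49 with limma on log2(FPKM + 1), 115 when one spread was fitted over 15 gubernaculum libraries, and 125 by the difference from testis. The genes called lower numbered 1345 with limma on log2(FPKM + 1), and those called higher 1526 in the fit over 15 libraries. In that fit myosins had 10 lower, collagens 8 lower, Wolffian duct markers 6 higher and epididymal markers 5 higher. With limma on log2(FPKM + 1) both Notch genes and collagens had 9 lower. Over genes of the same implied length, epididymal markers had 8 higher and hepatocyte markers 6, and with the length also stable over the 6 libraries, an alternative chosen after seeing the data, Notch genes had 9 lower. By the difference from testis, Notch genes had 4 lower, collagens 5 lower, epididymal markers 8 higher and hepatocyte markers 6 higher. For the limma fits and the fit over 15 libraries the cause was not tested.

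By the difference from testis, 15 named genes changed sign: Calcr 1.04, Cspg4 0.17, Ror2 0.21, Grem1 0.96, Evc2 0.12, Hoxa7 0.32, Col16a1 0.01, Col5a1 0.11, Ret 0.61, Ngfr 0.77, Foxd3 0.02, Cpa3 0.07, Ccne2 -0.95, mt-Nd6 -0.25 and mt-Nd4 -0.03.

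With 1 library left out in turn, the genes called lower numbered 2144 to 2446 and higher 1957 to 2427, those lower than testis 1391 to 1746 and higher 1455 to 2095, and those where INSL3-KI lay below INSL3-KO 1327 to 1651 and above it 1659 to 1840. Hepatocyte markers had 8 higher without WT replicate 3, and Rxfp2 ranged from -2.11, without INSL3-KO replicate 3, to -1.06, without INSL3-KO replicate 2.

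Replicate numbers did not pair the libraries: the correlations of same-numbered libraries' deviations were -0.0379, 0.0159 and 0.0289. With a replicate block 2246 genes were lower and 2302 higher, 1626 and 1531 by the difference from testis, 1550 and 1693 between INSL3-KI and INSL3-KO, and Rxfp2 was called at -1.56.

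Table and genotype cannot be told apart, 3 libraries per group limit the precision, and genes that overlap or share reads are uncertain because the counting is not known.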
